A study of Mus musculus with 8 samples.

Results

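Erythroid genes are active in the red cell lineage, and whole olfactory mucosa holds blood beside its epithelium and connective tissue. The genes described are Alas2, Slc4a1, Hemgn, Rhag and Ermap, chosen by symbol as those of 6 listed erythroid genes for which the array annotation named a transcript cluster of their own. They are 5 of 21789 transcript clusters, the units at which this array reports mRNA abundance, that carry exactly 1 gene symbol. The sixth listed gene, Ahsp, was not analysed here.

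The arrays measured RNA of olfactory mucosa, 1 mouse to an array, from 8 mice of mixed 129 x C57BL/6J background at postnatal day 1. The 4 knockouts were OmpCre:Emx2 fl/fl, in which Cre is expressed under Omp, a gene of mature olfactory sensory neurons (OSNs), and both copies of the homeodomain transcription factor gene Emx2 are floxed. The 4 control littermates were OmpCre:Emx2 fl/+ (controls 1 to 3) or Emx2 fl/fl without Cre (control 4). All 8 mice therefore carried at least 1 floxed copy of Emx2, and 7 of the 8 were labelled as carrying Cre. Recombination driven by Omp takes place in neurons, and no label or method gives a manipulation of the red cell lineage. Whole mucosa was used, so a difference in a red cell mRNA can come from fewer such cells or from less mRNA per cell, and the 2 cannot be told apart.

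Red cells arise from erythroblasts, which make hemoglobin and its heme group, assemble the red cell membrane, divide a few times and lose their nucleus. The reticulocytes that leave the marrow or fetal liver have no nucleus but still hold mRNA, which they lose as they mature in the blood. Erythroblast genes are switched on together by a small set of transcription factors, among them Gata1, which binds GATA sequences in their promoters and enhancers, and Klf1, which binds CACCC sequences.

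GATA sequences stood close to the start sites of the 4 described genes whose promoters were in the RefSeq table used here (build GRCm38.p6), those of Alas2, Hemgn, Rhag and Ermap. The 100 bases before each start are shown because this shared feature was not used to choose the genes. Capitals mark AGATAA, or the same word with T as its first base, G as its last base or both. Both strands were searched, so that reverse complements such as TTATCT count too.
Alas2 (chrX:150547317-150547416, + strand): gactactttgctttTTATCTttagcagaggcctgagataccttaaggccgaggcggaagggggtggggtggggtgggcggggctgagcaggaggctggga
Hemgn (chr4:46404184-46404283, - strand): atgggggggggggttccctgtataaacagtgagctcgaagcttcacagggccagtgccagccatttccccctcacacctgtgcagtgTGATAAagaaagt
Rhag (chr17:40811049-40811148, + strand): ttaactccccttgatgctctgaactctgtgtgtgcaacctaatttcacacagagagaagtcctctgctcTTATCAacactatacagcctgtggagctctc
Ermap (chr4:119189996-119190095, - strand): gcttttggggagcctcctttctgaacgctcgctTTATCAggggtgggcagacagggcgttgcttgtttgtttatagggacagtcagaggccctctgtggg

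The match began 86 bases before the start in Alas2, 13 in Hemgn, 31 in Rhag and 67 in Ermap. Of all 32851 promoters in the table, 10.4% held such a match in the same 100 bases. Not all promoters of other red cell genes, in the lists described below, held one. It was present in 0 of 4 promoters of globins and 1 of 16 of late erythroblast genes. The counts were 4 of 18 for heme synthesis and iron delivery, 3 of 9 for membrane and blood group proteins and 2 of 7 for transcription factors and the erythropoietin receptor. CACCC or its reverse complement GGGTG was present in the windows of Alas2 and Ermap and in 27.2% of all promoters. In the same lists it was in 1 of 4 promoters of globins and 7 of 18 of heme synthesis and iron delivery. It was in 7 of 9 of membrane and blood group proteins, 1 of 7 of transcription factors and the erythropoietin receptor, and 6 of 16 of late erythroblast genes. A match of letters is a description and does not show binding.

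The arrays were alike in scale, with median log2 signals between 8.64 and 8.68 and correlations between arrays from 0.985 to 0.994. Control 2 stood apart, at 32.9 on the first principal component against -11.8 to 6.11 in the other 7 mice. As a check of the labelled tissue, the mean log2 signal over 20 genes of mature OSNs was 11.71 to 11.93 in knockouts and 11.73 to 12.04 in controls. Omp itself was at 13.43 in control 1, although its label includes OmpCre, near the 13.29 of control 4 without Cre, and the knockouts lay between 12.60 and 12.91 with controls 2 and 3 at 12.72 and 12.56. Emx2 was lower in every knockout than in any control, by 0.55 ± 0.08 on the log2 scale (SE, limma adjusted p = 0.201). The labels give no sex, and Y-linked signal was high in knockout 3 and in controls 2, 3 and 4. Controls 3 and 4 also had Xist at 10.30 and 10.35, between knockout 3 and control 2, which were at 8.08 or lower, and the other 4 mice, at 13.41 to 13.52. What part these features have in the erythroid values was not tested.

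The first question was how far these mRNAs differ between mice. Alas2 encodes the first enzyme of heme synthesis in erythroid cells. Its log2 signals were 9.94, 9.02, 10.31 and 9.87 in knockouts 1 to 4 and 10.49, 8.42, 9.57 and 9.62 in controls 1 to 4. Control 1 was highest and control 2 lowest, a range of 2.07 or 4.21-fold, and knockout 2 was the next lowest. The SD over the 8 mice was 0.676, and 99.4% of all clusters had a smaller one.

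Slc4a1 encodes band 3, the anion exchanger that carries bicarbonate across the red cell membrane. It was at 9.08, 9.08, 9.07 and 8.79 in knockouts 1 to 4 and at 10.12, 7.92, 8.58 and 8.89 in controls 1 to 4. The same 2 controls were again the highest and the lowest mouse, 4.58-fold apart, but the knockouts kept close to one another (SD 0.143, against 0.920 in controls, n = 4 each). The SD over all mice was 0.614, above that of 99.3% of clusters. When 1 mouse at a time was left out, it ran from 0.418 to 0.662, and that of Alas2 from 0.493 to 0.730.

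The other 3 genes had smaller ranges and a different order of mice. Rhag encodes the Rh-associated glycoprotein, the partner of the Rh blood group antigens in the membrane. It was at 5.56, 6.16, 5.69 and 5.75 in knockouts 1 to 4 and at 6.20, 5.68, 5.62 and 5.95 in controls 1 to 4. Control 1 and knockout 2 were the high mice, and the range was 1.55-fold. Its SD of 0.245 was above that of 92.0% of all clusters and of 85.8% of the 1049 clusters within 0.5 of its mean signal.

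Hemgn encodes hemogen, a nuclear protein of blood-forming cells. It was at 7.23, 7.52, 7.21 and 7.17 in knockouts 1 to 4 and at 7.32, 7.21, 7.33 and 7.26 in controls 1 to 4, so that knockout 2 stood above all other mice. The SD was 0.112, close to the median cluster (0.0977), and without knockout 2 it was 0.0598. Ermap encodes a membrane protein of erythroblasts that carries the Scianna blood group in humans. It was at 7.82, 7.98, 7.90 and 7.79 in knockouts 1 to 4 and at 7.90, 7.80, 7.89 and 7.93 in controls 1 to 4. Knockout 2 was again highest, but the whole range was 1.14-fold. The SD of 0.0660 exceeded that of only 22.7% of all clusters and of 10.4% of the 3572 clusters of like signal. Ranked by SD, Alas2 and Slc4a1 differed little, Rhag followed, and Hemgn and Ermap were last. When each array was scaled to its mature OSN genes, the SD of Hemgn was 0.180 and that of Ermap 0.123.

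**Figure D1:**
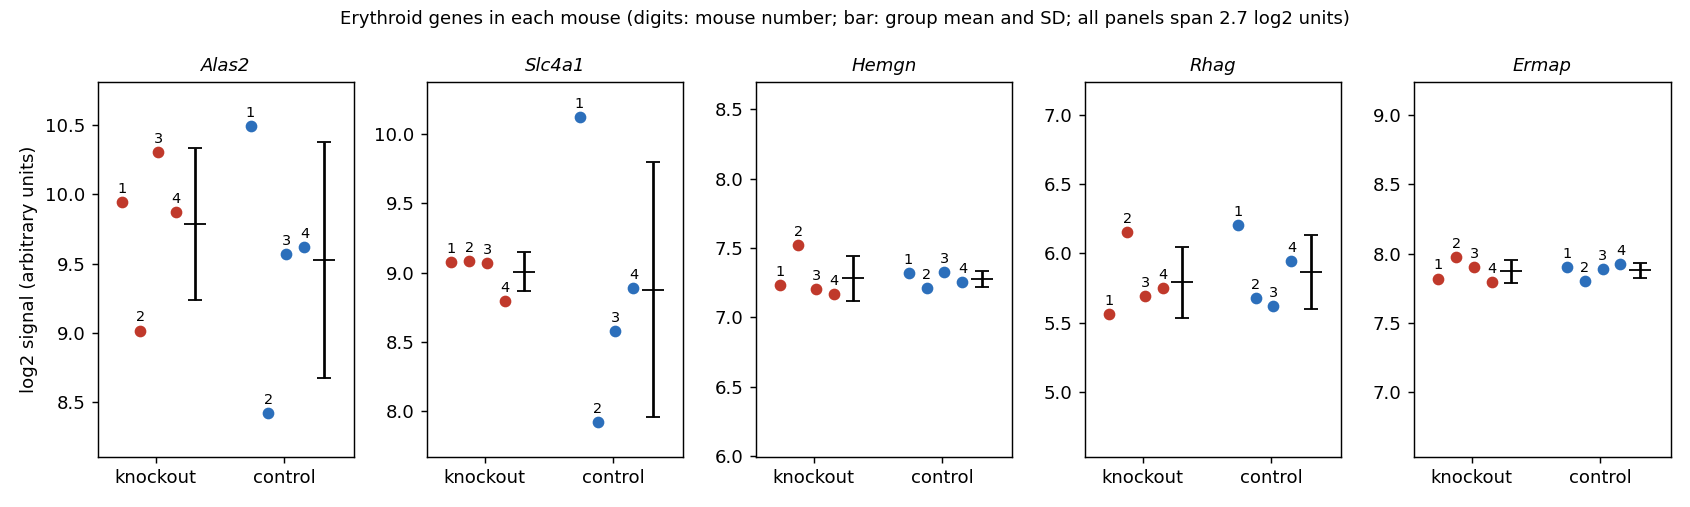
Log2 signal (y axis) of the 5 erythroid genes in each mouse (points, numbered by mouse), knockouts left of controls, with the group mean and SD as a bar. Alas2 spans 8.42 to 10.49 and Slc4a1 7.92 to 10.12, both set by controls 1 and 2, while Hemgn and Ermap stay within 0.35 and 0.18 log2 units.

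**Figure D2:**
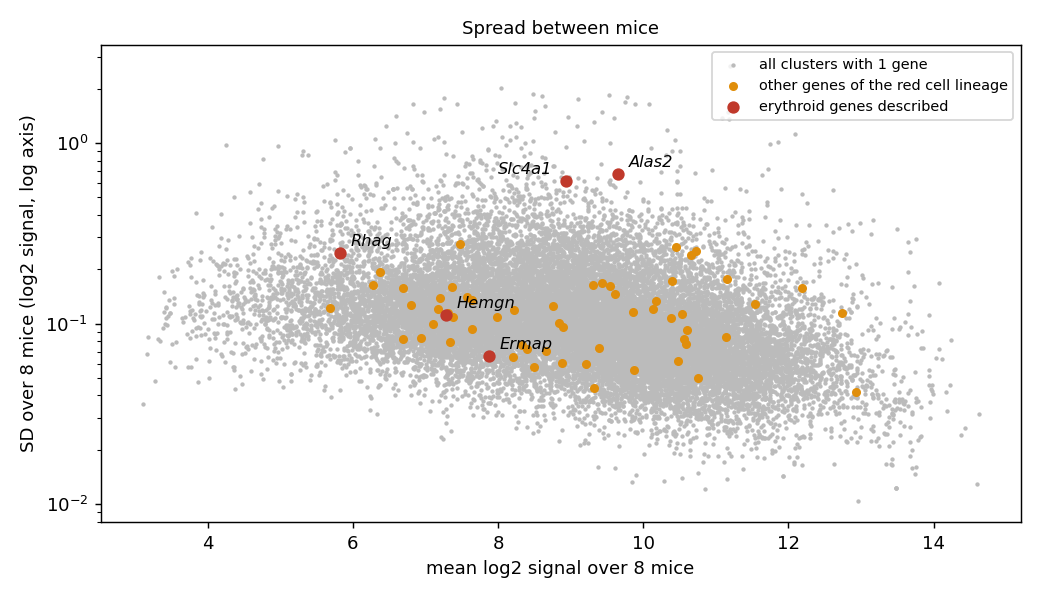
SD over the 8 mice (y axis, log scale) against mean log2 signal (x axis) for all 21789 clusters (grey), other genes of the red cell lineage (orange) and the 5 erythroid genes (red). Alas2 (0.676) and Slc4a1 (0.614) lie near the upper edge of the cloud, and Ermap (0.0660) lies low in it.

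Since mice differed in different genes, the genes were compared in pairs over the 8 mice, 10 pairs in all. Alas2 and Slc4a1 varied together with a Pearson r of 0.78 (exact permutation p = 0.0257, adjusted p = 0.129) and a Spearman rho of 0.60 (exact permutation p = 0.132, adjusted p = 0.393). Without controls 1 and 2, the mice farthest from the median of Alas2, r was 0.094. Leaving out the most extreme mice narrows the range and can by itself lower r. With 1 mouse left out, r was 0.72 without control 1, 0.58 without control 2 and 0.89 without knockout 2. Hemgn and Ermap gave r = 0.78 (exact permutation p = 0.0146, adjusted p = 0.129) and rho = 0.62 (exact permutation p = 0.115, adjusted p = 0.393), with r = 0.64 without knockout 2 and control 3. Knockout 2 was the highest mouse in both. Rhag and Ermap gave r = 0.67 (exact permutation p = 0.0710, adjusted p = 0.175) and rho = 0.52 (exact permutation p = 0.197, adjusted p = 0.393), with r = 0.47 without knockout 2 and control 1. Rhag and Hemgn gave r = 0.64 (exact permutation p = 0.0750, adjusted p = 0.175) and rho = 0.29 (exact permutation p = 0.501, adjusted p = 0.671), with r = 0.80 without knockout 2 and control 3. Rhag and Slc4a1 gave r = 0.63 (exact permutation p = 0.0875, adjusted p = 0.175) and rho = 0.55 (exact permutation p = 0.171, adjusted p = 0.393), with r = 0.30 without controls 1 and 2. Slc4a1 gave r = 0.44 with Ermap and 0.28 with Hemgn (exact permutation adjusted p = 0.456 and 0.611).

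Alas2, on the other hand, gave r = -0.23 with Hemgn, 0.10 with Rhag and 0.11 with Ermap (exact permutation adjusted p = 0.708, 0.822 and 0.822). Without controls 1 and 2 these were -0.89, -0.74 and -0.59. Without knockout 2 alone they were 0.22, 0.40 and 0.47, so the sign turned on which mice were left out. Knockout 2 ranked seventh of 8 mice in Alas2, 0.638 log2 units below the mean of all mice. In the other 4 genes it was highest (Hemgn and Ermap) or second (Slc4a1 and Rhag), 0.143 above the mean in Slc4a1 and 0.330 above it in Rhag. No pair passed after adjustment over the 10, the smallest adjusted p being 0.129 for r and 0.393 for rho. The median r over the pairs was 0.54, 0.55 with values taken as deviations from the group means, and 0.18 once each array was scaled to its mature OSN genes.

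The comparison of knockouts with controls found no difference beyond the spread between mice in any of the 5 genes. Alas2 averaged 9.79 ± 0.55 in knockouts and 9.53 ± 0.85 in controls (SD, n = 4 each), a difference of 0.26 ± 0.42 (SE, limma adjusted p = 0.951), with a 95% interval from 0.614-fold to 2.33-fold. Leaving out control 2 gave -0.11, leaving out control 1 gave 0.58, and leaving out knockout 2 or knockout 3 gave 0.52 or 0.085. Slc4a1 averaged 9.01 ± 0.14 in knockouts and 8.88 ± 0.92 in controls (SD, n = 4 each), a difference of 0.13 ± 0.39 (SE, limma adjusted p = 0.975) with an interval from 0.591-fold to 2.03-fold. The same mice moved it most, to -0.19 when control 2 was left out and to 0.54 when control 1 was (limma adjusted p = 0.625). It was 0.029 with control 3 left out and 0.20 with knockout 4 left out.

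Rhag averaged 5.79 ± 0.26 in knockouts and 5.86 ± 0.27 in controls, a difference of -0.071 ± 0.16 (SE, limma adjusted p = 0.963, interval 0.742-fold to 1.22-fold). Hemgn averaged 7.28 ± 0.16 in knockouts and 7.28 ± 0.06 in controls, with a difference of 0.0032 ± 0.08 (SE, limma adjusted p = 0.998, interval 0.885-fold to 1.14-fold). Ermap averaged 7.87 ± 0.08 in knockouts and 7.88 ± 0.06 in controls, with a difference of -0.0059 ± 0.05 (SE, limma adjusted p = 0.994, interval 0.914-fold to 1.09-fold). The signs of these 3 differences turned when single mice were left out. Rhag turned to 0.0044 without knockout 1 and to 0.042 without control 1. Its difference kept its sign and was larger, at -0.19, -0.15 and -0.13, with knockout 2, control 3 or control 2 left out. The intervals of Alas2 and Slc4a1 are wide enough to hold a 2-fold higher signal in knockouts, and those of the other 3 genes are not. Those 3 were dim, with 4.40% (Rhag), 17.8% (Hemgn) and 27.1% (Ermap) of all clusters lower in mean signal. How far so low a signal follows the amount of mRNA is not known, so a 2-fold difference in their mRNA is not excluded.

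Of the 5 differences, 3 were positive and 2 negative, where 51.4% of all clusters had a positive and 48.6% a negative difference. The split turned on single mice, with 0 positive and 5 negative when control 2 was left out, and 5 positive and 0 negative when either control 1 or knockout 1 was. With Y-linked signal as a covariate 1 was positive and 4 were negative, at a median of -0.047. That signal was high in knockout 3 and in controls 2, 3 and 4, so it was uneven between the groups. Its part cannot be well told apart from that of genotype. With each array scaled to its mature OSN genes, which moved the median of all clusters to 0.117, all 5 were positive, at a median of 0.12. In all 5 genes the groups overlapped, where 3.1% of all clusters had groups that did not. None was called, at an adjusted p under 0.05 (0% of all clusters) or at an unadjusted p under 0.05 (5.17% of all clusters). Genotype held 4.21% of the sum of squares over mice in Alas2, 2.39% in Rhag, 1.27% in Slc4a1, 0.226% in Ermap and 0.0242% in Hemgn.

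**Figure D3:**
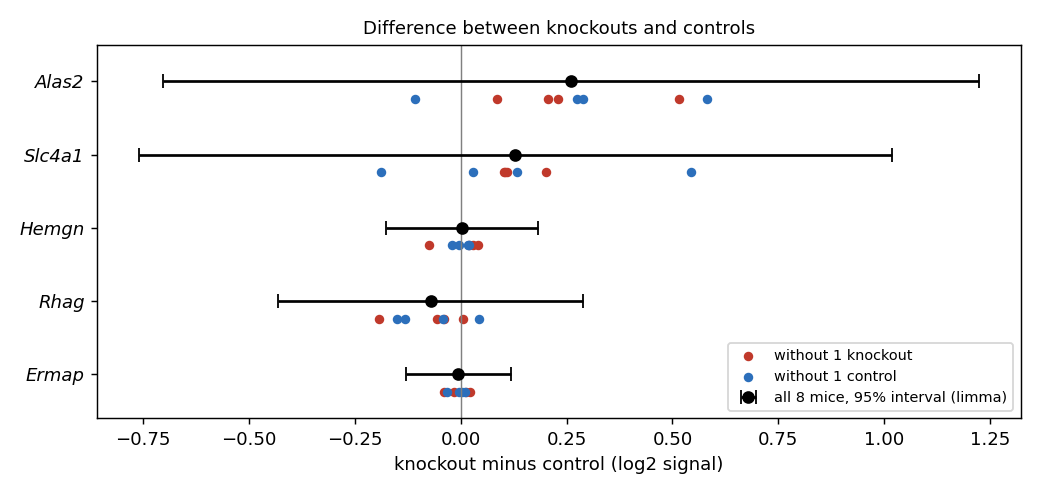
Difference of knockout minus control (x axis, log2 signal) for each erythroid gene, with its 95% limma interval over all 8 mice (black) and the difference after leaving out 1 knockout (red) or 1 control (blue). All intervals span 0, and leaving out control 2 or control 1 moves Alas2 to -0.11 or 0.58 and Slc4a1 to -0.19 or 0.54.

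Other genes of the red cell lineage were then taken from 5 lists. None of their measured members was called at an adjusted p under 0.05, but neither was any other cluster (0% of all clusters). In whole mucosa the signal of these genes need not come from red cells, and its source was not tested. Some were far brighter than Alas2 (mean log2 signal 9.66), such as Bnip3l (12.9), Prdx2 (12.7) and Alad (12.2). Counts and correlations of these lists are therefore not results about red cells alone. Of 13 genes of heme synthesis and iron delivery, 6 were higher and 7 lower in knockouts. The median difference was -0.0046, where that of all clusters was 0.0024. At an unadjusted p under 0.05 by limma were 0 of the 13 genes and 5.17% of all clusters. Slc25a37, which encodes mitoferrin, the iron importer of erythroblast mitochondria, had the smallest p of the list. It was at 10.48, 10.30, 10.61 and 10.43 in knockouts 1 to 4 and at 10.59, 10.14, 10.22 and 10.36 in controls 1 to 4, a difference of 0.13 ± 0.11 (SE, limma adjusted p = 0.910). Control 2 was the lowest mouse here too. Alad, the next enzyme of the heme pathway after Alas2, differed by 0.0010 ± 0.11 (SE).

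Of 13 membrane and blood group genes, 9 were higher and 4 lower (median 0.0325), but 5 were higher and 8 lower without control 2, which had the lowest mean of the list. Dmtn, which encodes the actin-bundling protein dematin, was below an unadjusted p of 0.05 (-0.15 ± 0.06 SE, limma adjusted p = 0.910). Tmod1, a cap of actin filaments, and Aqp1, the water channel, differed by 0.12 ± 0.15 and 0.036 ± 0.12 (SE). Of 8 genes for transcription factors and the erythropoietin receptor, 4 were higher and 4 lower, with Nfe2, part of a globin enhancer factor, at -0.16 ± 0.08 (SE, limma adjusted p = 0.910) and Klf1 at 0.00098 ± 0.07 (SE). Gata1 lay between 7.28 and 7.35 in knockouts and between 7.28 and 7.47 in controls. Counts of these lists moved when each array was scaled to its mature OSN genes, which gave 13 of 13 heme genes, 11 of 13 membrane genes and 7 of 8 factor genes higher. That scaling also moved the median of all clusters to 0.117. The medians were then 0.110 for heme genes, 0.147 for membrane genes and 0.110 for factor genes.

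Of 19 genes of late erythroblasts, 6 were higher and 13 lower (median -0.0193), or 15 higher and 4 lower with that scaling. Without control 2 it was 4 higher and 15 lower, without control 1 it was 10 higher and 9 lower (median 0.010), and without knockout 4 it was 9 and 10. At an unadjusted p under 0.05 by limma, 3 were lower and 0 higher, where 2.55% of all clusters were lower and 2.62% higher at that level. In 2 of the 19, Ypel4 and Tmcc2, the groups did not overlap, which held for 3.1% of all clusters. Ypel4 was at 9.44, 9.43, 9.54 and 9.52 in knockouts 1 to 4 and at 9.80, 9.72, 9.64 and 9.76 in controls 1 to 4 (-0.25 ± 0.05 SE, limma adjusted p = 0.440). Tmcc2 differed by -0.26 ± 0.06 (SE, adjusted p = 0.660) and Trim58, a ubiquitin ligase of erythroblasts, by -0.24 ± 0.07 (SE, adjusted p = 0.794). These 3 mRNAs did not follow Alas2 and Slc4a1 into a low value in control 2. Of 5 measured globin genes, 1 was higher and 4 lower (4 higher and 1 lower with the scaling to OSN genes), with Hbq1b at -0.15 ± 0.06 (SE, limma adjusted p = 0.910), Hbq1a at 0.022 ± 0.13 and the embryonic Hbb-bh1 at -0.030 ± 0.08 (SE). The clusters of the adult globins name several near-identical genes each and were not used here.

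Some of these other genes had profiles over mice like that of Alas2 and Slc4a1, and others like that of Rhag, Hemgn and Ermap. The correlations are a description over 8 mice that share their arrays. With the mean of Alas2 and Slc4a1, Slc25a37 had r = 0.91, Tent5c, a poly(A) polymerase gene, 0.90, Bpgm, which makes the regulator of oxygen affinity in red cells, 0.87, Epb42, a band 3 partner, 0.85, and Fech, the last enzyme of heme synthesis, 0.83. Tent5c was at 10.59, 10.21, 10.65 and 10.49 in knockouts 1 to 4 and at 10.94, 10.17, 10.24 and 10.30 in controls 1 to 4, so that it shared both low mice of Alas2, knockout 2 and control 2. With the mean of Rhag, Hemgn and Ermap, Car1, the carbonic anhydrase of red cells, had r = 0.88, Rhd, an Rh antigen, 0.82, and Kel, a blood group antigen, 0.76. The sets were not distinct, since with the mean of Alas2 and Slc4a1 Rhd had r = 0.64, Kel 0.39 and Car1 0.24. Car1 was at 7.40, 8.05, 7.28 and 7.33 in knockouts 1 to 4 and at 7.71, 7.23, 7.50 and 7.35 in controls 1 to 4, with knockout 2 above all other mice. Both sets of genes were picked from the upper end after their values were seen, and no test was made of them. Over the 57 different genes of these lists (Fech is in 2 of them), r was negative in 22 with the mean of Alas2 and Slc4a1 (median 0.20) and in 16 with the mean of Rhag, Hemgn and Ermap (median 0.19). The lowest values were -0.80 for Tfr2, the second transferrin receptor, -0.66 for Zfpm1, a Gata1 cofactor, and -0.65 for Aqp1 with the first mean, and -0.79 for Alad and -0.70 for Tfr2 with the second.

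Some lists of markers of other cells were also highest or lowest in control 2, the mouse that stood apart over all clusters. The platelet mean was not, at 8.27 in that mouse. Control 2, the lowest mouse in Alas2 and Slc4a1, had a mean log2 signal over 13 neutrophil genes of 9.61, where the knockouts lay between 8.43 and 8.77 and the other controls between 8.48 and 8.60. It also had the highest mean of 14 macrophage genes (9.86, against 8.97 to 9.27 in knockouts and 8.94 to 9.13 in the other controls) and the lowest mean of 11 cell division genes (10.39, against 11.02 to 11.25 in knockouts and 10.90 to 11.06 in the other controls). Knockout 2, the highest mouse in Hemgn and Ermap, was also highest in 4 of the 13 neutrophil genes, Ngp, Elane, Mpo and Camp, named after their values were seen. Ngp was at 9.84 there and at 8.14 to 9.14 in the other 7 mice, Elane at 8.36 against 7.15 to 7.56, Mpo at 8.13 against 7.30 to 7.64, and Camp at 7.89 against 7.39 to 7.79. Elane and Camp were lowest in control 2, where Ltf, Lcn2, Mmp8, S100a8, S100a9, Cxcr2, Retnlg and Ly6g were highest, and Mmp9 was highest in knockout 3. Control 1, highest in Alas2, Slc4a1 and Rhag, had the highest mean of the mature OSN list (12.04). Platelet genes (9 measured, 6 higher and 3 lower in knockouts, but 3 and 6 without knockout 2) and endothelial genes (11 measured, 9 higher and 2 lower, but 2 higher and 9 lower with Y-linked signal as a covariate) had means of 8.13 to 8.45 and 9.05 to 9.59 in knockouts and of 8.17 to 8.43 and 9.25 to 9.39 in controls. In whole mucosa the signal of these lists need not come from the cells they are named for. Neither its source nor the part of these cells in the erythroid values was tested.

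The members of smallest p in these lists were Itgb3 of platelets (0.11 ± 0.07 SE), Ly6g of neutrophils (-0.16 ± 0.07 SE), Tyrobp of macrophages (-0.35 ± 0.23 SE), Tie1 of endothelium (0.12 ± 0.07 SE), Aurkb of cell division (0.30 ± 0.12 SE), Stmn4 of immature OSNs (-0.21 ± 0.09 SE), S100a5 of mature OSNs (-0.58 ± 0.12 SE) and Eif2s3y of the Y-linked genes (-2.04 ± 0.96 SE). Their limma adjusted p values lay between 0.459 and 0.910. Neutrophil genes were 5 higher and 8 lower in knockouts, with a median difference of -0.26 that was -0.0014 without control 2 (6 higher and 7 lower). Macrophage genes were 5 higher and 9 lower, with a median of -0.030 that was 0.11 without control 2 (11 higher and 3 lower). Mature and immature OSN genes had 4 higher with 16 lower and 4 with 8. Of cell division genes all 11 were higher in knockouts, with a median difference of 0.26 that was 0.10 without control 2.

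**Figure D4:**
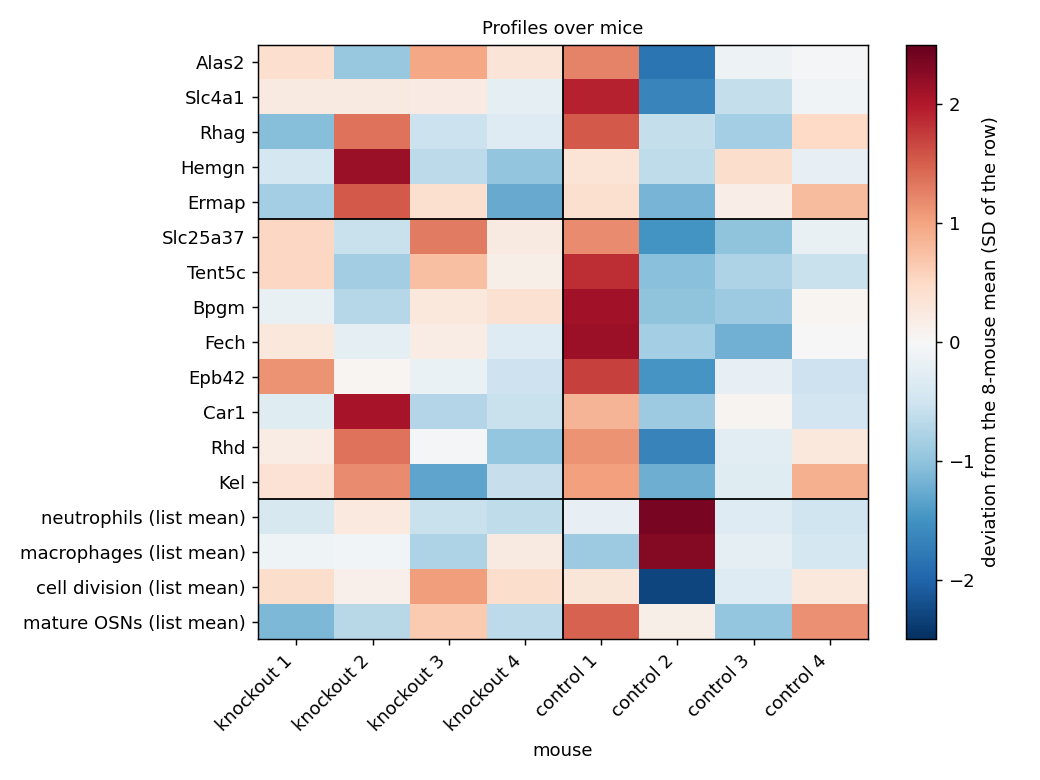
Deviation of each mouse (columns, knockouts left) from the mean of all 8, in SDs of the row, for the 5 erythroid genes, 8 other genes of the red cell lineage and the means of 4 marker lists. Alas2, Slc4a1 and the genes from Slc25a37 to Epb42 are lowest or near lowest in control 2 and high in control 1. Rhag, Hemgn, Ermap, Car1, Rhd and Kel are high in knockout 2. The patterns overlap, since control 2 is also low in Ermap (-1.17), Car1 (-0.91), Rhd (-1.67) and Kel (-1.23). Control 1 is also high in Rhag (1.53), Rhd (1.12) and Kel (1.02).

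Over all clusters outside the erythroid lists, the 10 profiles most like the mean of the 5 genes had Pearson r from 0.93 to 0.99 over the 8 mice, out of 21246 ranked, and 30 clusters reached 0.9. They were 4932438A13Rik, Gpr155, Dmxl1, Sec14l3, Mir17hg, Zfp277, Hyls1, Lipg, Zfp873 and Phtf2. The mean of the 5 genes is weighted toward Alas2 and Slc4a1, whose range is largest. Gpr155, which encodes a lysosomal membrane protein, had the widest range among them, with 11.10, 11.27, 11.18 and 11.15 in knockouts 1 to 4 and 11.75, 10.39, 10.99 and 11.15 in controls 1 to 4, with control 1 highest and control 2 lowest as in Slc4a1. Without controls 1 and 2 the r of these 10 ran from 0.34 to 0.96, with a median of 0.70 where it was 0.94 over all 8 mice. For the mean of Rhag, Hemgn and Ermap, a profile added after the values were seen, 11 clusters reached 0.9, with Trcg1 (0.95), Dpys (0.94) and Ngp (0.92) among the first 5. For the mean of Alas2 and Slc4a1, likewise added, 40 clusters reached 0.9, led by Phtf2 (0.98) and Tprg (0.96).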

How the data were processed

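Total RNA from 8 olfactory mucosae was hybridised to Affymetrix whole-transcript mouse gene arrays. The values the authors deposited are log2 signals per transcript cluster, which combine the probe sets of all exons of a gene. They were made with Affymetrix Expression Console, according to the submitters' processing notes, whose algorithm and version are not stated in the sources used here. Values ran from 2.65 to 14.9 with nearly equal array medians and were not transformed or normalized again. The file holds no background or detection values, and the number of arrays limits the precision.

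Of 35557 clusters, 21789 had exactly 1 gene symbol in the platform annotation and were tested. Each erythroid gene had 1 row. For other genes the row of highest mean was used. Listed genes without a cluster of their own were not analysed here. Knockouts were compared with controls by limma 3.58.1 in R 4.3.3 (lmFit, eBayes, two-sided) with Benjamini-Hochberg adjustment over all clusters at 0.05, and intervals are 95%. The methods' t-test and a scaling of each array to the mean of 20 mature OSN genes were alternatives, along with quantile normalization, array weights, a filter on dim clusters, all clusters, a Y-linked covariate and leaving out each mouse. Pairs of genes were tested by exact permutation over the pairings of 8 mice. The fit was tested on simulated data. Mice are numbered in accession order, and litters are not named, so nothing pairs them. Genes named were the erythroid genes; per erythroid list the member of smallest p and the 2 of largest SD; per other list the member of smallest p; the 10 most alike profiles; Emx2 and Omp. Others are said to be chosen after their values were seen, or are named for p under 0.05 or as Gata1 and Xist for background. The members and lists were chosen with earlier results of these data known.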

Additional observations from a re-analysis of the deposited data

Results flagged for a closer look

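Of 34 groups of 4 mice examined, 3 held a mouse far from the other 3 for the range of its group. Chance gives about 1 in 20. Slc4a1 was at 8.79 in knockout 4, while the other knockouts lay between 9.07 and 9.08. The gap is large only for the closeness of those 3, since controls spanned 7.92 to 10.12.

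The mean of the red cell membrane and blood group genes was 8.44 in control 2, with the other controls between 8.57 and 8.60. The mean of the neutrophil genes was 9.61 in control 2, with the other controls between 8.48 and 8.60. Both concern the mouse in which Alas2 and Slc4a1 were lowest, and their relation was not tested.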

How the results depend on the processing

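Under 15 alternatives (14 for all genes but Alas2) no erythroid gene came under an adjusted p of 0.05, the smallest being 0.605 for Alas2 and Ermap, both with scaling to the mature OSN list. Leaving out 1 mouse gave differences from -0.11 to 0.58 for Alas2, -0.19 to 0.54 for Slc4a1, -0.076 to 0.041 for Hemgn, -0.19 to 0.042 for Rhag and -0.041 to 0.021 for Ermap. The sign turned for Alas2 and Slc4a1 without control 2 (-0.11 and -0.19), and for Slc4a1 with the Y-linked covariate (-0.27). For Hemgn it turned with quantile normalization (-0.0013), array weights (-0.0059), the Y-linked covariate (-0.047), and without knockout 2 (-0.076), control 2 (-0.020) or control 4 (-0.0041). For Rhag it turned with scaling to the mature OSN list (0.044) and without knockout 1 (0.0044) or control 1 (0.042). For Ermap it turned with that scaling (0.11) and without knockout 1 (0.012), knockout 4 (0.021), control 1 (0.0020) or control 4 (0.010). The cause was not tested. Over all clusters limma called 0 genes (1126 at an unadjusted p under 0.05), and the methods' t-test called 0 (1081 at p under 0.05). The number called was 5 under that scaling, 5 with array weights, 2 among clusters above the median signal, and 0 to 1 on leaving out 1 mouse, the 1 being without control 3. Slc4a1, Hemgn, Rhag and Ermap were below that median and had no value there. Each erythroid gene had 1 row, so averaging rows changed nothing. No paired analysis was possible because the labels give neither replicate numbers nor litters. The SD of Hemgn was 0.180 and that of Ermap 0.123 with the scaling to OSN genes, the SD of Hemgn was 0.0598 without knockout 2, and the median correlation of pairs was 0.18 with that scaling and 0.39 to 0.57 on leaving out 1 mouse. The file holds no background values, so how much of the low signal of Rhag, Hemgn and Ermap is specific is not known.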
